A study of Bos taurus with 60 samples.

Results

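Mammary tissue of cooled (CL) Holstein cows was compared between D3, the third day after milking had stopped, and D-3, the third day before it, when the cows were still being milked. The samples were those labelled CL at Day -3 and Day 3, which gives 12 of the 60 samples of the series, 1 biopsy of each of the same 6 cows on either side of dry-off. All 6 were pregnant cows that had calved more than once, and their ages were not given in the sources used here. CL cows were kept under shade with fans and soakers through the dry period, which covers the D3 samples. How they were housed and cooled at D-3 was not given in the sources used here. No CL cow was milked on past D0, so that dry-off, time, pregnancy stage and any change of cooling at dry-off cannot be told apart. Biopsies alternated between glands of the udder, and gland and day cannot be told apart either. The biopsies were trimmed of visible fat and not sorted, so that they hold epithelium together with stroma, vessels and immune cells. Each library is therefore a mixture, and in such bulk tissue fewer cells of a type and less RNA per cell cannot be told apart.

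When milk removal stops, the mammary gland involutes. Milk accumulates in the alveoli, the secretory epithelium withdraws from the synthesis of casein, lactose and milk fat, and epithelial cells are lost or remodelled while tight junctions, matrix and immune defence are reorganised. In rodents the first days are governed by LIF and oncostatin M acting through STAT3, whereas prolactin acting through STAT5 maintains milk synthesis. In dairy cows the process runs alongside pregnancy, and the tissue rebuilds secretory epithelium before the next calving.

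Reads were counted on 25223 loci, with 21409292 to 26044014 counts per library. A locus was tested if it had at least 1 CPM, the read count scaled to library depth, in no fewer than 6 of the 12 libraries, which left 13606 loci. CPM values were scaled by TMM, a method that sets the bulk of loci level between libraries, and compare 1 locus between samples and not different genes with each other. Symbols for loci came from supplementary tables held here in part, which paired 2884 of the tested loci with a symbol, 1674 of them through a table of the time comparison that includes these samples. Symbols therefore lean towards loci with a small p for D3 vs. D-3, and the counts of gene groups are no fair sample of each group. The libraries of a day were not alike. On a multidimensional scaling (MDS) plot, dimension 1 held 51.4% of the variance and spread the D-3 libraries from -1.59 to 2.73. Cows 7965, 8564 and 8647 lay at 1.77 to 2.73 at D-3, and cows 8060, 8603 and 8686 at -1.59 to -1.45. Dimension 2 held 16.5%, with D-3 at -0.992 to -0.221 and D3 at 0.36 to 1.73 in 5 cows. The D3 library of cow 8686 lay at -0.858, among the D-3 libraries. D3 was higher than D-3 on dimension 2 in 5 of 6 cows (two-sided exact sign-flip test, p = 0.0625, where the smallest possible p is 0.0312).

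Milk protein genes differed widely between cows at D-3. CSN1S1 and CSN2, which encode the αS1- and β-casein of milk, and LALBA, which encodes α-lactalbumin, the regulator of lactose synthase, were the milk protein genes that could be paired with loci. They took 40.9%, 40.2% and 44.4% of all counts at D-3 in cows 7965, 8564 and 8647. In cows 8060, 8603 and 8686 they took 0.19%, 0.569% and 0.367% at the same day. The label of D-3 as a day of milking was thus matched by abundant milk protein mRNA in 3 libraries and not in the other 3. At D3 the shares were 0.225%, 5.58% and 6.31% in cows 7965, 8564 and 8647, and 0.00982%, 0.774% and 1.01% in cows 8060, 8603 and 8686. The share was lower at D3 in 4 of 6 cows and higher in cows 8603 and 8686, and the days overlapped. The mean difference was -18.8 percentage points, from 21.1% ± 22.8 at D-3 to 2.32% ± 2.84 at D3 (SD, n = 6), which did not pass (two-sided exact sign-flip test, p = 0.219). The 95% Wilson interval of each share reached at most 0.0194 percentage points to either side, and covers counting error only, since reads carried no molecular identifiers. The TMM factors of these libraries ran from 0.403 to 1.48 at D-3 and from 0.968 to 1.39 at D3.

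**Figure D1:**
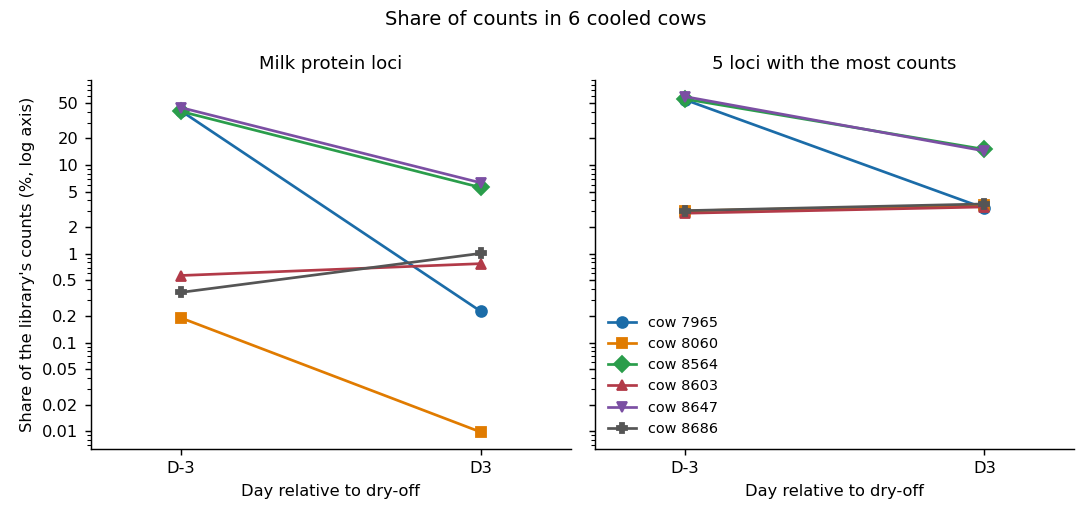
Percent of a library's counts (log axis) at D-3 and D3 in the 6 CL cows, 1 line per cow, for the milk protein loci CSN1S1, CSN2 and LALBA (left) and the 5 loci with the most counts in that library (right). Cows 7965, 8564 and 8647 start at 40.2% to 44.4% of counts in milk protein loci, and the other cows start below 0.6%.

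No locus passed an FDR of 0.05 in the comparison of D3 with D-3 over the 12 samples with the cow as a block (edgeR quasi-likelihood F-test, Benjamini-Hochberg adjustment), which is 0.0% of the 13606 loci. The smallest FDR was 0.0786, and 10 loci had an FDR of at most 0.10, which is 0.0735%. An unadjusted p of at most 0.05 was reached by 2313 loci, which is 17.0%, with 1275 higher at D3 (9.37%) and 1038 lower (7.63%). DESeq2 with the same block called 785 loci at an FDR of 0.05, and edgeR without cow 8686 called 85, of which 53 were higher. The same test in a fit of all 30 CL samples of the 5 days called 904 loci for D3 vs. D-3, with 396 higher (2.91%) and 508 lower (3.73%). With library size alone as the scale that fit called 618, of which 569 were higher and 49 lower. With TMM scaling, the count of 904 fell to 0 without cow 8564 and to 1 without cow 8647. It was 517 without cow 7965, 413 without cow 8603 and 1541 without the D14 library of cow 7965. Part of the residual spread of the fit of 30 samples comes from later days. There the median SD of log2 CPM between cows was 0.264 at D7, 0.33 at D14 and 0.287 at D25, against 0.402 at D-3 and 0.361 at D3. Values below are therefore given as levels and differences, and no gene is called changed. The number of cows on each side is given for part of the genes. A mean difference alone does not mean that all 6 cows went the same way. A locus was higher at D3 in 6 of 6 cows in 651 cases (4.78%) and lower in 6 of 6 in 486 (3.57%). All 6 D3 values lay above all 6 D-3 values in 98 loci (0.72%), and below them in 35 (0.257%).

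The loci with the smallest p included LBP, S100A2, SOD2 and VMP1, each higher at D3 in every cow. LBP, which encodes the acute-phase protein that binds bacterial lipopolysaccharide, had 12.2, 41.1 and 56.4 CPM at D-3 (lowest, median and highest cow) and 94.3, 209 and 519.7 CPM at D3. The days did not overlap, and the log2 fold change was 2.75 ± 0.33 (SE, FDR = 0.0786). S100A2, which encodes a calcium-binding protein of epithelia, had 5.85, 18.4 and 29.6 CPM at D-3 and 61.7, 95.9 and 168 CPM at D3. It did not overlap between days either, and its log2 fold change was 2.62 ± 0.31 (SE, FDR = 0.0786). SOD2, the mitochondrial superoxide dismutase, had 12.7, 25.7 and 65.5 CPM at D-3 and 48.4, 114 and 262 CPM at D3, so that the days overlapped although each cow was higher at D3. Its log2 fold change was 2.03 ± 0.28 (SE, FDR = 0.0878). VMP1, a membrane protein needed to form autophagosomes, had 47.7, 73.4 and 110.1 CPM at D-3 and 74.7, 148 and 373 CPM at D3, at a locus that joins 2 ENSEMBL genes. It was higher at D3 in 6 of 6 cows, and its log2 fold change was 1.22 ± 0.17 (SE, FDR = 0.0878).

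MYOC, OGN, SCARA5 and FHL5 were lower at D3 in every cow. MYOC encodes myocilin, a secreted glycoprotein. It had 14.1, 25.7 and 38.6 CPM at D-3 and 5.35, 7.2 and 11.3 CPM at D3, with no overlap, and a log2 fold change of -1.70 ± 0.20 (SE, FDR = 0.0786). OGN, which encodes the matrix proteoglycan osteoglycin, had 55.0, 98.3 and 165 CPM at D-3 and 25.7, 39.1 and 57.1 CPM at D3. The days overlapped narrowly, and each cow was lower at D3 (log2 fold change -1.28 ± 0.16, SE, FDR = 0.0852). SCARA5, a ferritin receptor of stromal cells, was lower in 6 of 6 cows with 39.6, 62.4 and 95.0 CPM at D-3 and 14.5, 36.1 and 47.5 CPM at D3 (log2 fold change -0.94 ± 0.13, SE, FDR = 0.0878). FHL5, a LIM domain protein, had 7.83, 10.6 and 17.9 CPM at D-3 and 2.58, 3.6 and 6.4 CPM at D3 without overlap (log2 fold change -1.55 ± 0.22, SE, FDR = 0.0878). The other 2 of the 10 loci had no symbol. XLOC_002230, the locus of ENSBTAG00000004562, had at most 0.841 CPM at D-3 and at least 1.27 CPM at D3 (log2 fold change 2.94 ± 0.39, SE). XLOC_019701, a locus without an ENSEMBL gene, had a median of 11.7 CPM at D-3 and 2.14 CPM at D3 (log2 fold change -2.17 ± 0.31, SE). These 10 were selected for their small p, after their values were seen.

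**Figure D2:**
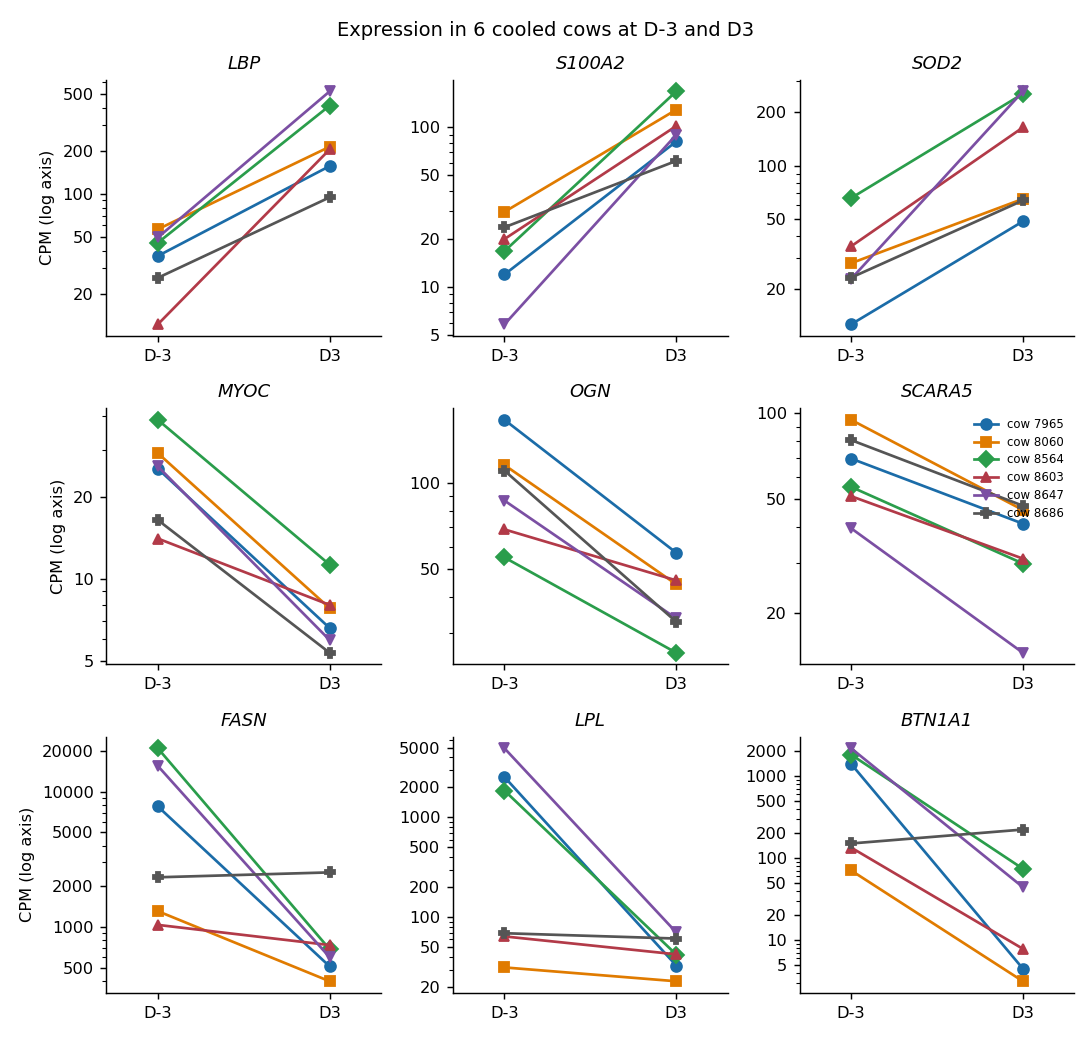
CPM (log axis) at D-3 and D3 in the 6 CL cows, 1 line per cow, for 9 genes. The 3 genes of the top row are higher and the 3 of the middle row lower at D3 in all 6 cows, whereas FASN, LPL and BTN1A1 in the bottom row start far apart between cows, with LPL between 31.5 and 4919 CPM at D-3.

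All 3 milk protein loci were lower at D3 on average, with log2 fold changes of -2.95 ± 1.81 for CSN1S1, -3.58 ± 1.88 for CSN2 and -5.07 ± 1.76 for LALBA (SE, FDR = 0.431, 0.36 and 0.231). LALBA had 8.49, 21089 and 72974 CPM at D-3 and 0.448, 187 and 540.3 CPM at D3. It was lower in 5 of 6 cows and went from 122 to 290.2 CPM in cow 8686. By cow, the log2 difference of CSN2 was -9.10 in cow 7965, -4.54 in cow 8060, -4.17 in cow 8564 and -4.58 in cow 8647, but 0.29 in cow 8603 and 1.37 in cow 8686. The remaining 4 milk proteins listed (CSN1S2, CSN3, PAEP and GLYCAM1) could not be paired.

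The coat of the milk fat globule was described by 5 loci, all lower at D3 on average and 3 with an unadjusted p of at most 0.05. All 5 symbols came from the table of the time comparison. In it 35.4% of loci were lower at that p and 1027 of 1674 were lower on average. BTN1A1 encodes butyrophilin, the main protein of that coat. It had 70.6, 772 and 2159.7 CPM at D-3 and 3.17, 26.0 and 222 CPM at D3, lower in 5 of 6 cows, and its log2 fold change was -4.62 ± 1.04 (SE, FDR = 0.178). XDH, the xanthine dehydrogenase that binds butyrophilin, had 475, 4262 and 11091 CPM at D-3 and 553, 964 and 1535 CPM at D3. XDH was lower in 3 cows and higher in the other 3 (log2 fold change -1.30 ± 0.81, SE, FDR = 0.434).

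On the scale of library size alone the median locus stood at 0.61 (log2), and 9 of the 27 gene lists had a median below 0 in place of 14, so that directions below are relative to TMM scaling. Of 14 genes of fatty acid and triglyceride synthesis, all were lower at D3 on average, 6 with an unadjusted p of at most 0.05 and 1, LPL, in 6 of 6 cows. Among all loci with a symbol, 22.1% were lower at that p and 8.36% lower in 6 of 6 cows, and for symbols from the table of the time comparison the shares were 35.4% and 12.8%. The median log2 fold change of the 14 was -1.69, against 0.01 over all loci and -0.34 over loci with a symbol from that table, and all 14 symbols came from it. By cow, the median log2 difference of the 14 was -3.79, -3.93 and -3.46 in cows 7965, 8564 and 8647. In cows 8060, 8603 and 8686 it was -0.26, -0.03 and 0.25. FASN, the fatty acid synthase, had 1041, 5047 and 20809 CPM at D-3 and 400.1, 645 and 2536 CPM at D3 (log2 fold change -2.64 ± 0.87, SE, FDR = 0.221). GPAM, which attaches the first fatty acid to glycerol phosphate, had 291, 2467 and 7782 CPM at D-3 and 105, 160 and 371 CPM at D3 (log2 fold change -3.18 ± 1.05, SE, FDR = 0.221). Both were lower in 5 of 6 cows and slightly higher in cow 8686. LPL, which releases fatty acids from circulating lipoproteins, had 31.5, 963 and 4919 CPM at D-3 and 22.9, 42.5 and 70.6 CPM at D3 (log2 fold change -3.17 ± 1.27, SE, FDR = 0.267). Its 6 differences in log2 CPM ranged from -6.26 in cow 7965 to -0.18 in cow 8686. SCD, the desaturase that makes oleic acid, was at -2.97 ± 1.12, and CD36, a fatty acid receptor, at -1.89 ± 0.84. FABP3, a fatty acid carrier, was at -3.35 ± 1.83, and ACACA, which makes malonyl-CoA, at -1.30 ± 0.61. The regulators SREBF1 and INSIG1 were at -0.78 ± 0.31 and -1.25 ± 0.65 (log2 fold changes ± SE, FDR from 0.249 to 0.379). FABP3, ACACA and INSIG1 were each lower in 4 of 6 cows and higher in 2.

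**Figure D3:**
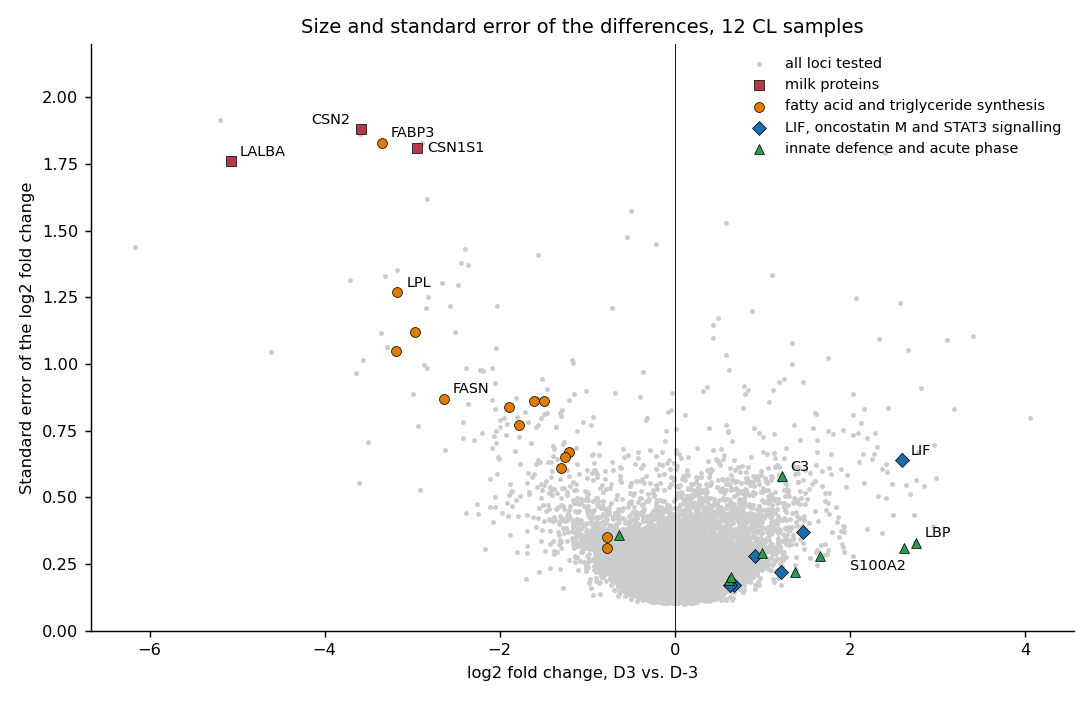
Log2 fold change of D3 vs. D-3 against its standard error for the 13606 loci tested in 12 CL samples (grey), with the loci of 4 gene lists marked. CSN1S1, CSN2 and LALBA lie at standard errors of 1.76 to 1.88, and LBP and S100A2 at 0.33 and 0.31.

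Cholesterol synthesis was lower at D3 on average in 14 of 14 genes, 8 of them with an unadjusted p of at most 0.05, at a median log2 fold change of -0.74. By cow, the median log2 difference of the list was -1.13, -1.19 and -2.07 in cows 7965, 8564 and 8647. In cows 8060, 8603 and 8686 it was 0.0, -0.2 and -0.05. The table of the time comparison gave 13 of the 14 symbols, and in it 35.4% of loci were lower at that p and 1027 of 1674 were lower on average. IDI1 and SC5D were lower in 6 of 6 cows, with log2 fold changes of -0.86 ± 0.31 and -0.77 ± 0.26 (SE). SQLE, the squalene epoxidase, had 55.9, 120.1 and 443 CPM at D-3 and 55.9, 69.0 and 104 CPM at D3 (log2 fold change -0.84 ± 0.30, SE, FDR = 0.233). HMGCS1, a synthase early in the pathway, was at -0.65 ± 0.46 (log2 fold change ± SE, FDR = 0.49).

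Glucose use and lactose synthesis held 8 genes, 7 lower and 1 higher at D3 on average. All 8 symbols, and all 7 of the citrate cycle and NADPH supply below, came from the table of the time comparison. In it 1027 of 1674 loci were lower on average, and 12.8% were lower in 6 of 6 cows. The median log2 difference of the glucose and lactose list was -1.92, -1.39 and -1.6 in cows 7965, 8564 and 8647. In cows 8060, 8603 and 8686 it was -0.08, 0.13 and 0.29. UGP2, which makes UDP-glucose, had 151, 316 and 896 CPM at D-3 and 89.6, 153 and 364 CPM at D3 (log2 fold change -1.08 ± 0.35, SE, FDR = 0.221). B4GALT1, the catalytic part of lactose synthase, was at -0.65 ± 0.44, the glucose carrier SLC2A1 at -0.81 ± 0.37 and hexokinase HK2 at -0.70 ± 0.42. B4GALT1 and SLC2A1 were each lower in 4 of 6 cows, and HK2 was lower in 3 cows and higher in 3. PGM1, a phosphoglucomutase, was higher in 5 of 6 cows (0.48 ± 0.15). In the citrate cycle and NADPH supply, 6 of 7 genes were lower on average (median -0.43, and 0.18 with library size alone), with PC, the pyruvate carboxylase, lower in 6 of 6 cows (-1.02 ± 0.22). IDH1, which supplies NADPH, and PDHA1, a subunit of pyruvate dehydrogenase, were at -0.73 ± 0.37 and -0.58 ± 0.23 (log2 fold changes ± SE), and PDHA1 was at 0.03 with library size alone. Both genes were lower in 4 of 6 cows.

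Amino acid uptake and serine synthesis held 13 genes, of which 11 were lower on average and 4 had an unadjusted p of at most 0.05. That count lies between the shares of 22.1% over loci with a symbol and 35.4% over symbols from the table of the time comparison, which gave 10 of the 13. The median log2 difference of the list was -2.46, -1.74 and -1.95 in cows 7965, 8564 and 8647. In cows 8060, 8603 and 8686 it was 0.15, 0.06 and 0.31. PSAT1, of serine synthesis, had 18.1, 98.6 and 320.3 CPM at D-3 and 17.9, 23.4 and 35.8 CPM at D3 (log2 fold change -1.78 ± 0.73, SE, FDR = 0.271). SLC7A5, the large neutral amino acid exchanger, had 21.4, 173 and 604 CPM at D-3 and 24.5, 34.0 and 56.3 CPM at D3, lower in 3 cows and higher in the other 3. Its partner chain SLC3A2 was higher in 5 of 6 cows (0.56 ± 0.25), and the related SLC7A8 was higher in 3 cows and lower in 3 (1.36 ± 0.77), with D3 values of 344 CPM in cow 8564, 336 CPM in cow 8647 and 40.6 CPM in cow 8603 and at most 20.5 CPM in the other cows. In branched-chain amino acid catabolism, 9 of 10 genes were lower on average and 6 reached an unadjusted p of at most 0.05. The table of the time comparison, with 35.4% of its loci lower at that p, gave 9 of these 10 symbols. DBT, a subunit of the branched-chain dehydrogenase, was at -0.86 ± 0.22 and IVD, of leucine breakdown, at -0.98 ± 0.31 (log2 fold changes ± SE, FDR = 0.192 and 0.221). All 8 aminoacyl-tRNA synthetases were lower on average by a small margin (-0.61 to -0.22), and that list's median of -0.44 was 0.16 with library size alone.

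Among 7 genes of calcium and phosphate transport, 5 were lower on average. The table of the time comparison gave 6 of these 7 symbols, and in it 1027 of 1674 loci were lower on average. PTHLH encodes parathyroid hormone-related protein, which the lactating gland secretes and which draws calcium from bone. It had 0.644, 120.4 and 466 CPM at D-3 and 0.549, 2.96 and 11 CPM at D3, and its log2 fold change was -3.31 ± 1.33 (SE, FDR = 0.267). Its D-3 values were 238, 343 and 466 CPM in cows 7965, 8564 and 8647 and at most 3.22 CPM in the other cows. SLC34A2, a phosphate transporter, had 11.5, 625 and 3618 CPM at D-3 and 8.05, 24.4 and 41.6 CPM at D3 (log2 fold change -2.89 ± 1.83, SE, FDR = 0.444). SLC34A2 was lower in 4 of 6 cows. Of 4 prostaglandin and lipoxygenase genes, 2 were lower and 2 higher at D3 on average. ALOX15, the 15-lipoxygenase, had 563, 489 and 610.2 CPM at D-3 in cows 7965, 8564 and 8647 and at most 3.0 CPM in the other 3, against 1.25 to 7.27 CPM at D3 (log2 fold change -3.59 ± 1.86, SE, FDR = 0.357). PTGES, a prostaglandin E synthase, stood higher at D3 in 5 of 6 cows, with 3.01, 5.11 and 8.25 CPM at D-3 and 4.77, 22.4 and 108 CPM at D3 (log2 fold change 2.10 ± 0.63, SE, FDR = 0.21).

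Of 4 genes of prolactin, growth hormone and STAT5 signalling, 3 were lower on average, with STAT5B at -0.57 ± 0.22, its target CISH at -0.53 ± 0.22 and NR3C1, the glucocorticoid receptor, at -0.64 ± 0.17, although the list's median of -0.55 was 0.06 with library size alone. All 4 symbols of this list came from the table of the time comparison. In it 1027 of 1674 loci were lower on average, and 12.8% were lower in 6 of 6 cows. NR3C1 was lower in 6 of 6 cows, and the insulin receptor INSR was higher in 5 of 6 (0.41 ± 0.16). The LIF, oncostatin M and STAT3 list behaved differently from the milk lists, in that its 6 tested genes were each higher at D3 in 6 of 6 cows and each reached an unadjusted p of at most 0.05. Their median log2 fold change was 1.07. Over all loci with a symbol, 20.5% were higher at that p and 9.6% higher in 6 of 6 cows, and for symbols from the table of the time comparison, which gave all 6, 30.1% and 13.7%. LIF, the cytokine itself, had 0.297, 0.829 and 1.77 CPM at D-3 and 1.68, 4.04 and 29.2 CPM at D3 (log2 fold change 2.59 ± 0.64, SE, FDR = 0.192). The highest D3 values of LIF were 29.2 CPM in cow 8564 and 20.9 CPM in cow 8647, and the days overlapped only through the 1.77 CPM of cow 8564 at D-3 and the 1.68 CPM of cow 8686 at D3. OSMR, the oncostatin M receptor, had 73.9, 141 and 258 CPM at D-3 and 124, 287 and 565 CPM at D3 (log2 fold change 1.21 ± 0.22, SE, FDR = 0.121). STAT3 had 115, 177 and 267 CPM at D-3 and 197, 282 and 309.7 CPM at D3 (log2 fold change 0.63 ± 0.17, SE, FDR = 0.195). The receptor IL6R was at 0.68 ± 0.17, and the transcription factors JUNB and FOSL2 were at 1.46 ± 0.37 and 0.92 ± 0.28 (log2 fold changes ± SE).

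**Figure D4:**
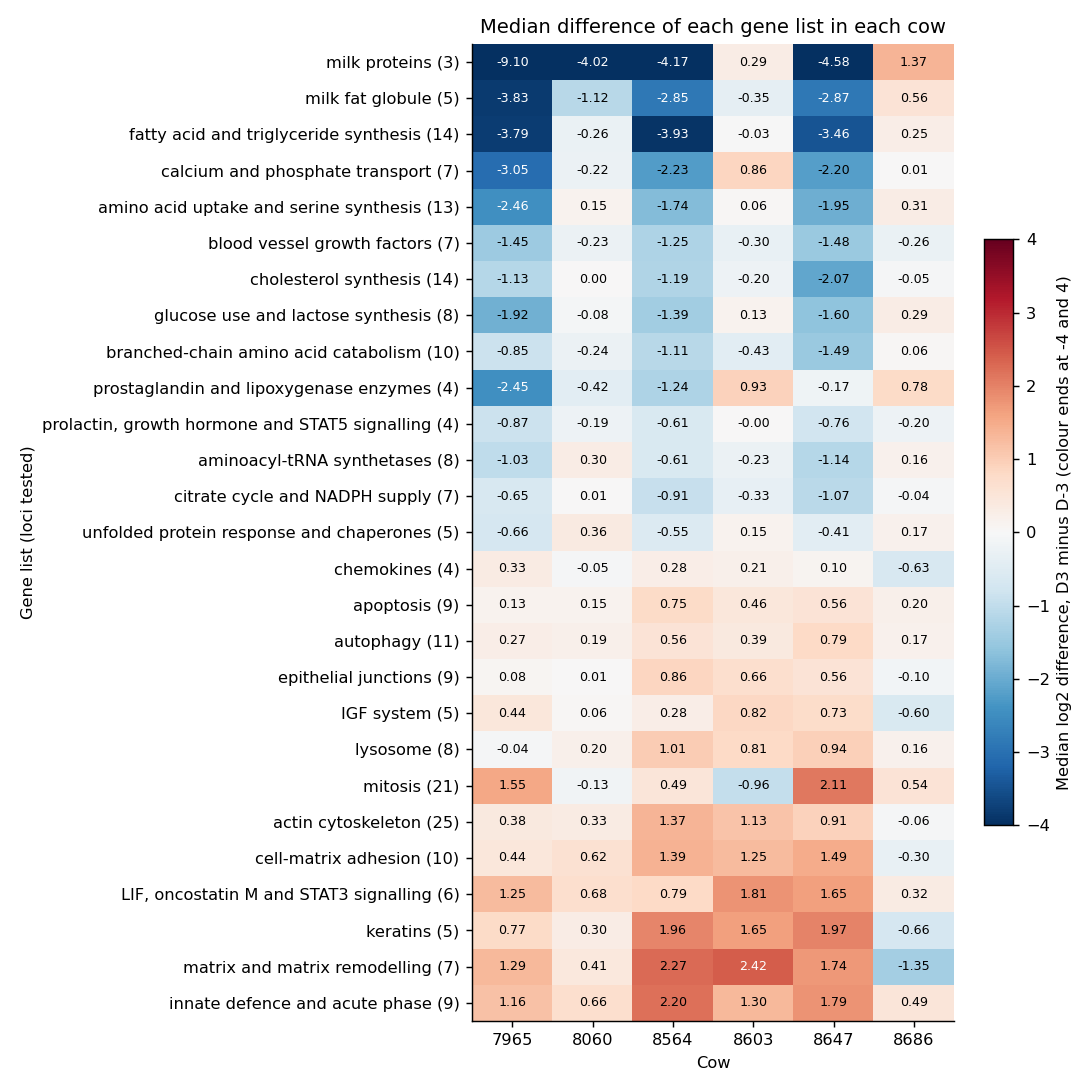
Median log2 difference, D3 minus D-3, of the tested loci of 27 gene lists (rows, with the number of loci) in each of the 6 CL cows (columns). Milk protein and fatty acid lists are at -3.46 to -9.10 in cows 7965, 8564 and 8647. The LIF, oncostatin M and STAT3 list and the innate defence, apoptosis and autophagy lists are above 0 in all 6 cows.

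In innate defence, 8 of 9 tested genes were higher at D3 on average, 7 with an unadjusted p of at most 0.05 and 6 in 6 of 6 cows (median log2 fold change 1.22). The table of the time comparison gave 7 of the 9 symbols. In it 30.1% of loci were higher at that p and 13.7% were higher in 6 of 6 cows. Besides LBP and S100A2, the complement factor CFB was at 1.66 ± 0.28, at a locus that joins 2 ENSEMBL genes. S100A11 was at 1.37 ± 0.22, the phospholipid-binding ANXA2 at 1.0 ± 0.29 and the complement protease C1S at 0.62 ± 0.19, all higher in 6 of 6 cows. PGLYRP1, which binds bacterial cell wall, was lower in 5 of 6 cows (-0.64 ± 0.36). Chemokines divided. CXCL12, which attracts leukocytes and is made by stroma, had 257, 409 and 516 CPM at D-3 and 173, 217 and 264 CPM at D3, lower in 6 of 6 cows (log2 fold change -0.85 ± 0.18, SE, FDR = 0.173). CXCL13, which attracts B cells, was also lower in 6 of 6 (-1.88 ± 0.52), whereas CXCL16 was higher in 6 of 6 (0.94 ± 0.21) and CXCL17 in 5 of 6 (1.43 ± 0.52). The whole-list medians by cow were positive for innate defence in all 6 cows, lowest at 0.49 in cow 8686 and highest at 2.2 in cow 8564.

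Genes of cell death and clearance differed by less. Of 9 apoptosis genes, 8 were higher on average and 4 had an unadjusted p of at most 0.05. The table of the time comparison gave 5 of these 9 symbols, and 30.1% of its loci were higher at that p. Among loci with a symbol from other tables only, 7.27% were higher at that p. The death receptors FAS and TNFRSF1A were at 0.63 ± 0.13 and 0.71 ± 0.19 and the BH3-only protein BMF at 0.63 ± 0.17, each higher in 6 of 6 cows. The survival protein MCL1 was higher in 5 of 6, at 0.64 ± 0.21, and the initiator caspase CASP9 was at 0.27 ± 0.13, with 16.6 to 23.9 CPM at D-3 and 20.7 to 25.8 CPM at D3. Of 11 autophagy genes, 10 were higher on average, 6 of them with an unadjusted p of at most 0.05. Of these 11 symbols, 8 came from the table of the time comparison. WIPI1, which acts early in autophagosome formation, was lower at that p (log2 fold change -0.92 ± 0.40, SE). SQSTM1, the cargo receptor p62, had 117, 155 and 197 CPM at D-3 and 165, 289 and 875 CPM at D3, higher in 6 of 6 cows (log2 fold change 1.20 ± 0.31, SE, FDR = 0.192). DRAM1 was at 0.36 ± 0.14 and EPG5 at 0.29 ± 0.12. Of 8 lysosome genes, 7 were higher on average, with the membrane protein LAMP1 at 0.54 ± 0.22 and the enzyme HEXA at 0.62 ± 0.21 (log2 fold changes ± SE, FDR from 0.232 to 0.283 for these 4). The table of the time comparison gave 3 of the 8 lysosome symbols. Among loci with a symbol from other tables only, 857 of 1210 were higher on average. The lysosome median was -0.04 in cow 7965 and 0.16 to 1.01 in the other cows. LAMP1 was higher in 5 of 6 cows and HEXA in 6 of 6.

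All 25 actin cytoskeleton genes were higher at D3 on average, 18 with an unadjusted p of at most 0.05 and 10 in 6 of 6 cows, at a median log2 fold change of 0.68. The table of the time comparison gave 18 of the 25 symbols. In it 30.1% of loci were higher at that p, 13.7% were higher in 6 of 6 cows and 647 of 1674 were higher on average. ACTB and ACTG1, the cytoplasmic actins, were at 0.80 ± 0.31 and 1.06 ± 0.38, PFN1, which feeds actin to growing filaments, at 0.75 ± 0.17 and TMSB10, which sequesters actin, at 0.92 ± 0.27. RHOA, the switch of contractility, had 259.5 to 390.4 CPM at D-3 and 354 to 667 CPM at D3 (0.48 ± 0.19). The ACTG1 locus joins 2 ENSEMBL genes, ACTG1 and MIR3533. The actins and TMSB10 have near-identical copies elsewhere in the genome, and reads that map to several places were not counted, so their levels are uncertain. All 10 adhesion genes were higher on average, 7 with an unadjusted p of at most 0.05 and 1 in 6 of 6 cows. The table of the time comparison gave 8 of these 10 symbols. The list's median difference was -0.3 in cow 8686 and 0.44 to 1.49 in the other cows. ITGB6, the integrin β6 subunit, had 24.8, 65.8 and 145 CPM at D-3 and 76.0, 342 and 617 CPM at D3 (log2 fold change 2.25 ± 0.64, SE, FDR = 0.204). In cow 8686 it went from 109.6 to 76.0 CPM. The hyaluronan receptor CD44 was at 1.20 ± 0.25 and ILK, the integrin-linked kinase, at 0.48 ± 0.23. CLDN4, a tight junction claudin, was at 1.63 ± 0.72. ILK and CLDN4 were each higher in 4 of 6 cows. All 9 junction genes were higher on average, 3 of them with an unadjusted p of at most 0.05. Of these 9 symbols, 8 came from other tables, where 857 of 1210 loci were higher on average and 7.27% were higher at that p. All 5 keratin genes were also higher on average, 2 of them at that p, with a median of 1.10 over the list and -0.66 in cow 8686. The table of the time comparison gave 2 of these 5 symbols.

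Matrix genes differed in direction between cows. All 7 were higher at D3 on average and 5 had an unadjusted p of at most 0.05, but none was higher in 6 of 6 cows, and the median difference of the list was -1.35 in cow 8686 against 0.41 to 2.42 in the other 5. The table of the time comparison gave 6 of the 7 symbols, and 30.1% of its loci were higher at that p. FN1, the fibronectin gene, had 125, 352 and 930.3 CPM at D-3 and 364, 896 and 2248 CPM at D3 (log2 fold change 1.49 ± 0.60, SE, FDR = 0.27). In cow 8686 it went from 930.3 to 364 CPM. COMP, the cartilage oligomeric matrix protein, was at 3.11 ± 1.09 with at most 1.16 CPM at D-3, MXRA5 at 2.16 ± 0.83 and the protease inhibitor TIMP1 at 0.95 ± 0.29 (log2 fold changes ± SE, FDR from 0.211 to 0.254). Of 5 genes of the IGF system, 4 were higher at D3 on average, 3 of them with an unadjusted p of at most 0.05. The table of the time comparison gave 3 of these 5 symbols. IGFBP5, which binds insulin-like growth factors, had 29.2, 79.7 and 123 CPM at D-3 and 79.6, 139 and 528 CPM at D3, higher in 5 of 6 cows (1.31 ± 0.50). IGFBP2 was at 1.76 ± 0.52, the receptor IGF1R was higher in 6 of 6 cows at 0.38 ± 0.15, and IGF1 was at 0.17 ± 0.28.

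Vessel growth factors were lower on average in 5 of 7 genes. The table of the time comparison gave 4 of these 7 symbols. In it 1027 of 1674 loci were lower on average, and 12.8% were lower in 6 of 6 cows. ANGPT2, which loosens vessels, and APLN, the peptide apelin of sprouting endothelium, were lower in 6 of 6 cows. APLN had 7.32, 13.9 and 24.1 CPM at D-3 and 1.5, 2.12 and 21.3 CPM at D3 (log2 fold change -2.24 ± 0.44, SE, FDR = 0.14), and its highest D3 value, 21.3 CPM, was that of cow 8686. ANGPT2 was at -1.38 ± 0.29, and VEGFA had 57.2, 95.0 and 179 CPM at D-3 and 45.3, 51.3 and 65.2 CPM at D3, lower in 5 of 6 cows (-0.89 ± 0.27, FDR = 0.212). The unfolded protein response list had no gene of 5 with an unadjusted p of at most 0.05 (median -0.34, and 0.29 with library size alone), with DDIT3 at 0.06 ± 0.20 and HSPB1 at 0.48 ± 0.25. HSPB1 was higher in 3 cows and lower in 3. Of 21 mitosis genes, 19 were higher on average but only MKI67 had an unadjusted p of at most 0.05 in that direction, and NCAPG was lower at that p. MKI67, the proliferation marker, had 5.45, 19.0 and 58.0 CPM at D-3 and 21.3, 39.4 and 74.9 CPM at D3, higher in 6 of 6 cows (1.17 ± 0.40, FDR = 0.229), and TOP2A was higher in 4 of 6 (0.42 ± 0.38, and -0.08 without the cow as a block). The mitosis medians by cow ran from -0.96 in cow 8603 to 2.11 in cow 8647, and 1 of the 21 symbols came from the table of the time comparison. Among loci with a symbol from other tables only, 857 of 1210 were higher on average, against 6973 of 13606 over all loci. Of the former, 7.27% were higher and 3.8% lower at an unadjusted p of at most 0.05, and 3.88% were higher and 2.23% lower in 6 of 6 cows.

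Cell type markers could be paired in small part. The luminal epithelial keratin KRT19 was at a median of 688 CPM at D-3 and 656 CPM at D3 (0.40 ± 0.30), and KRT7, ELF3 (loci that each join 2 ENSEMBL genes) and ERBB3 were at 1.62 ± 0.62, 0.85 ± 0.32 and 1.89 ± 0.61, so that epithelial markers were present at both days. By cow, the median log2 difference of these 4 luminal markers ran from -0.12 in cow 8686 to 3.16 in cow 8564. It was 0.05 in cow 8060, and 1 of the 4 was higher in all 6 cows. All 5 myoepithelial markers were higher on average, 2 of them (KRT5 and TAGLN) with an unadjusted p of at most 0.05, and by cow their median ran from -1.01 in cow 8686 to 2.42 in cow 8603. Over all loci with a symbol, 20.5% were higher at that p. The 2 adipocyte markers ADIPOQ and FABP4 were at -1.23 ± 0.34 and -1.53 ± 0.80, the endothelial EMCN and KDR at -0.56 ± 0.15 and -0.82 ± 0.46, the fibroblast marker DCN at -0.16 ± 0.23 and the macrophage markers AIF1 and MSR1 at 0.33 ± 0.22 and 0.08 ± 0.15 (log2 fold changes ± SE). EMCN and KDR stood lower together with APLN and ANGPT2, and ADIPOQ and FABP4 together with LPL, and the part of these cell types in those differences was not tested. One muscle marker, MYH2, was at 2.66 ± 1.05 from a median of 0.584 CPM. No marker of neutrophils, T cells, B cells or erythrocytes could be paired, so the share of those cells was not measured beside the defence genes.

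Outside the lists, the largest differences among loci alike in all 6 cows were chosen with the help of the fit of 30 samples, after its calls were seen, so that they describe and do not test. RNF183, a ubiquitin ligase, had at most 0.691 CPM at D-3 and 1.3, 4.31 and 64.5 CPM at D3 (log2 fold change 4.05 ± 0.80, SE, FDR = 0.14). CLU, the secreted chaperone clusterin, had 194, 399.7 and 1133 CPM at D-3 and 1298, 2479 and 3166 CPM at D3, without overlap (2.37 ± 0.61, FDR = 0.192). SCARA3, a scavenger receptor, did not overlap either, with 12.8 to 126 CPM at D-3 and 133 to 465 CPM at D3 (2.59 ± 0.66), and MDFI, an inhibitor of myogenic factors, was at 1.93 ± 0.39. For CLU and SCARA3 the difference was small in cows 8060 and 8686, at log2 0.56 and 0.20 for CLU and 0.70 and 0.45 for SCARA3, against 2.35 or more in the other 4.

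On the lower side were SLC28A1, a nucleoside carrier, at -2.93 ± 0.77, EXTL1 at -2.83 ± 0.98, LRP3, a lipoprotein receptor relative, at -2.11 ± 0.47 and KIF25, a kinesin, at -2.11 ± 0.57. LOC100300091 had 2.18, 7.24 and 27.7 CPM at D-3 and 0.236, 0.605 and 1.27 CPM at D3, without overlap (-3.61 ± 0.56, FDR = 0.113). BDA20/MGC151921, a locus that joins 2 ENSEMBL genes, was at -2.63 ± 0.68 (log2 fold changes ± SE). Loci without an ENSEMBL gene contributed XLOC_001525, at a median of 11.1 CPM at D-3 and 0.0539 CPM at D3 (-6.16 ± 1.44), XLOC_016392 (-1.02 ± 0.22), XLOC_017149 (-2.06 ± 0.50), XLOC_012573 (-1.51 ± 0.38) and XLOC_024050, which was higher at D3 (0.92 ± 0.23). The D3 value of XLOC_001525 was 1.92 CPM in cow 8686 and at most 0.0794 CPM in the other cows.

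Levels at the later days place the D3 values in the dry period of the same cows. They are scaled over all 30 CL samples, so that D-3 and D3 differ a little from the values above. LBP averaged 45.2 ± 19.8 CPM before dry-off and 319 ± 196 at D3 (mean ± SD, n = 6). It then averaged 194 ± 115 at D7 and 188 ± 167 at D14, and by D25 it was 83.3 ± 59.1. S100A2 went from 21.6 ± 10.1 to 126 ± 46.1 CPM and was 47.6 ± 35.1 at D25. LIF was at 12.4 ± 14.2 CPM at D3 and 2.7 ± 2.41 at D7, and STAT3 at 326 ± 52.3 and 291 ± 61.4. MYOC was at 8.99 ± 2.61 CPM at D3 and 19.9 ± 12.6 at D7, and CXCL12 at 259 ± 43.9 and 376 ± 77.5. LPL stayed between 54.3 ± 21.1 and 85.4 ± 69.7 CPM from D3 to D25, after 1906 ± 2373 at D-3, and PTHLH was at 0.957 ± 0.554 at D25 after 212 ± 247. At D14 the library of cow 7965 stood apart, with 2.62 CPM of LBP beside 76.1 to 393 in the other cows.

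**Figure D5:**
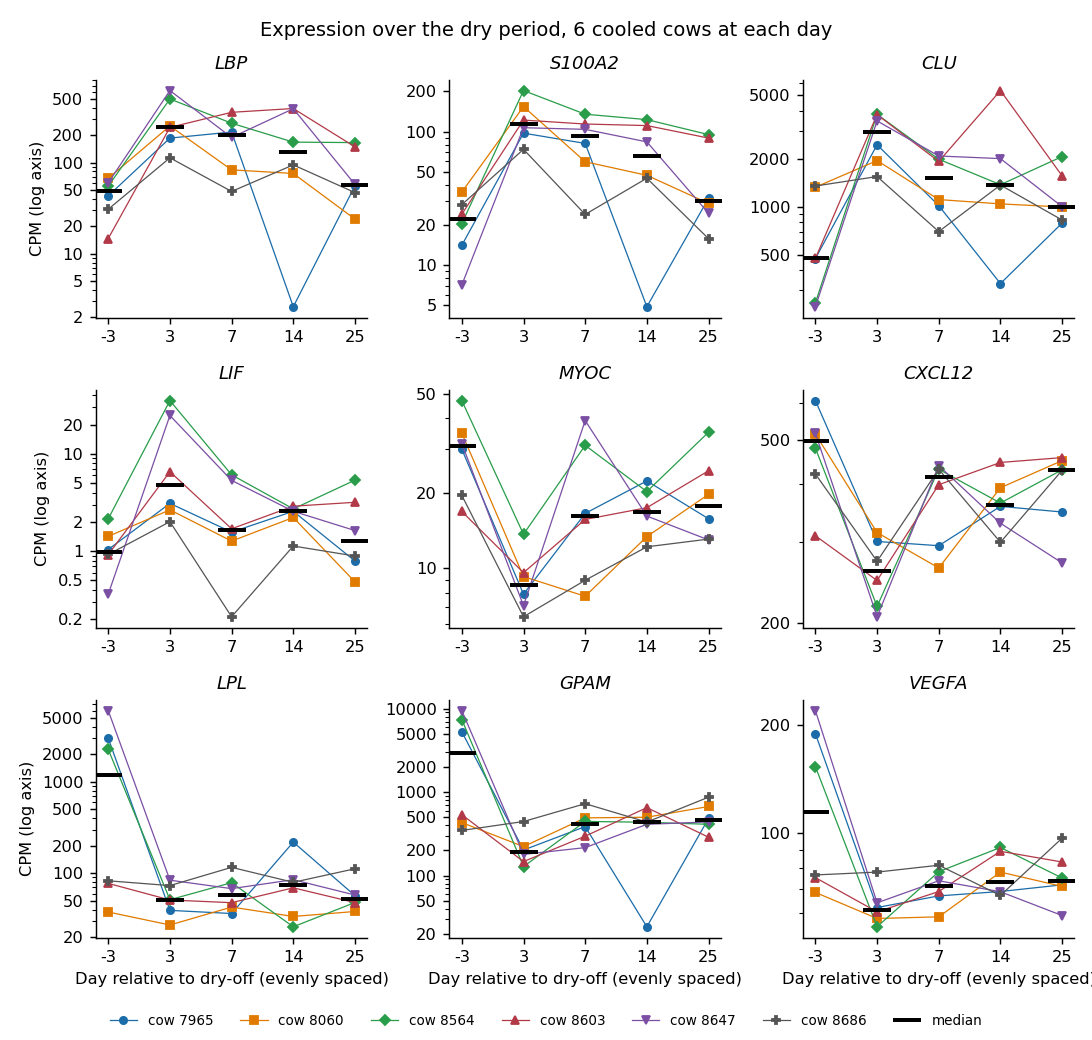
CPM (log axis, scaled over 30 CL samples) of 9 genes over the 5 days from D-3 to D25 in the 6 CL cows, 1 line per cow with the median as a black bar. LBP, S100A2, CLU and LIF have their highest median at D3, MYOC and CXCL12 their lowest, and the LPL, GPAM and VEGFA values of cows 7965, 8564 and 8647 at D-3 lie above all later values.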

How the data were processed

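The authors sequenced single-ended reads, trimmed them with Trim Galore 0.4.1, mapped them with TopHat2 2.0.13 (build UMD3.1 in the submitters' processing notes, bosTau7 in the methods), merged Cufflinks 2.2.1 transcripts into the ENSEMBL annotation, and ran htseq-count on reads that mapped to 1 place. Whether strand was used in counting was not given in the sources used here, so that reads of a gene and of an antisense partner cannot be told apart. The deposited values are raw counts per locus, with no normalization by the authors. Each table has 26073 entries for 25223 loci, and repeats of a locus that joins several ENSEMBL genes (742 loci) were dropped. Only CL samples were used, grouped by their treatment and time labels and paired by their subject id.

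Loci at 1 CPM or more in 6 or more of the 12 libraries were tested with edgeR 4.0.16 in R 4.3.3 (TMM factors, trended dispersion, quasi-likelihood F-test, cow as a block), with Benjamini-Hochberg FDR and a threshold of 0.05. The cow is the biological replicate. The pairing rests on the subject id, and same-cow deviations correlated at -0.0753 to 0.689 between days. Between different cows the mean correlation was -0.0796. For 3 of the 6 cows the D-3 deviations correlated best with those of the same cow at D3. Log2 CPM used a prior count of 2, and MDS 500 loci. For single values the test was the two-sided exact sign-flip test with all 64 sign changes. Tables and figures used Python 3.11.15 with matplotlib 3.10.9, scipy 1.17.1, pandas 2.3.3 and numpy 2.4.6. The tests were tried on simulated counts with the same dispersion at every locus. Those counts lacked the split between cows seen at D-3, so that the trial cannot vouch for the tests in these data. Alternatives were DESeq2 1.42.0, other scalings, filters, sets of samples and each cow left out.

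The members and gene lists were chosen with earlier results of these data known. Named genes are fixed members of each list, with the 8 highest and 8 lowest loci by log2 fold change and 5 loci without an ENSEMBL gene among loci past the FDR threshold, at a mean of at least 5 CPM and alike in 6 of 6 cows. As that rule found 0 loci, it was applied to the FDR of the fit of 30 CL samples, and the 10 loci with an FDR of at most 0.10 were added, both after the values were seen. Other list symbols lacked a tested locus here, and some named genes are not reported here.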

Additional observations from a re-analysis of the deposited data

Results flagged for a closer look

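Of 188 sets of 6 values checked for a value far from the others (a named locus or share at 1 day), 6 held one by Dixon's ratio, the gap to the nearest value over the whole range, where chance gives about 1 in 20. At D3 cow 8686 was highest for FASN, with 2536 CPM beside 400.1 to 739 in the other cows (ratio 0.668), for APLN, with 21.3 CPM beside 1.5 to 2.4 (0.827), and for XLOC_001525, with 1.92 CPM beside 0.032 to 0.0794 (0.878). It was lowest for COMP, with 0.172 CPM beside 3.23 to 14.4 (0.635). At D-3 cow 8603 was highest for EPG5, with 56.0 CPM beside 37.2 to 41.2 (0.747), and cow 7965 was lowest for RNF183, with 0 CPM beside 0.276 to 0.691 (0.659).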

How the results depend on the processing

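The count of loci at an FDR of 0.05 was 0 with the cow as a block and also 0 without the block (2011 loci with an unadjusted p under 0.05), with RLE factors, with TMM computed without milk protein genes, with the newer quasi-likelihood method and with a filter of 1 CPM in all 12 libraries. A further requirement of an absolute log2 difference of 1 or more can only leave 0. It was 904 in the fit of all 30 CL samples, 394 with library size only (358 higher and 36 lower, where the median locus shifted to 0.61), 785 with DESeq2, 62 without the filter and 10 at an FDR of 0.10, and 0 to 85 with each cow left out, the 85 without cow 8686 and 3 without cow 8603. The cause was not tested. In the fit of 30 samples it was 574 without the block, 1608 with DESeq2, 1541 without the D14 library of cow 7965, 39 with only D-3, D3 and D7, and 0 to 1296 with each cow left out. Of 27 lists, 14 had a median below 0, and 9 with library size only. The milk protein share difference ran from -22.7 to -14.4 percentage points with each cow left out. Named loci that changed direction were PDHA1 (0.03) with library size only, TOP2A (-0.08) without the block, and DDIT3 (-0.03 and -0.04, in a range of -0.04 to 0.20) without cows 8060 and 8564.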
